A study of Rattus norvegicus with 32 samples.

Results

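Lactation changed gene expression in the rat liver and in the small intestine, and the question here was which genes changed differently in the 2 organs. For every gene the lactating minus control difference in liver was set against the mean of the same difference in duodenum, jejunum and ileum. All 32 arrays of the series entered the comparison, 8 of liver and 24 of intestine. The lactating rats were Sprague-Dawley dams at day 10 to 11 of lactation, and the control rats were virgin females of the same age. All rats were sacrificed at hour 16 of the day, in the light phase, and litters had been trimmed to a similar size. RNA of 4 rats was combined into 1 pool, the same rats in each tissue, so that each of the 8 groups (lactating and control liver, duodenum, jejunum and ileum) held 4 pools and no animal was measured alone. The labels name homogenates of each tissue, and the study's methods add that the intestinal RNA came from scrapings of the mucosa. In such bulk samples fewer cells of a type and less RNA per cell cannot be told apart.

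During lactation rats eat far more than virgin females, the intestinal lining grows, and the dam moves calcium, phosphate, zinc, amino acids and lipid from the gut to milk. The liver receives the absorbed nutrients through the portal vein and makes plasma proteins, bile acids and much of the circulating lipid. Prolactin and growth hormone reach both organs and signal through Stat5, insulin-like growth factors and their binding proteins.

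The arrays gave 1 value on the log2 scale for each of 19434 transcript clusters (groups of probes that stand for a gene), normalized by the authors. A cluster was called when limma's moderated test gave a Benjamini-Hochberg adjusted p under 0.05 over all clusters. The contrast is called the liver minus intestine difference. Replicates are these pools. The test takes its spread from the arrays within all 8 groups together, with the pool as a random block. It uses 27.2 total degrees of freedom and is not a test of 1 value per pool, for which a separate fit is given below. A positive value means that the change with lactation was higher in liver than in intestine, and 1 unit stands for a factor of 2 between the ratios. Standard errors follow the sign ±. The 10 hepatocyte markers summed to log2 values of 16.59 to 16.69 in the livers and to at most 12.11 in the intestinal pools, and the 6 measured enterocyte markers to at most 10.52 in liver and 14.98 to 15.77 in intestine, so the tissues carried the markers of their labels.

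The liver minus intestine difference was called for 398 clusters, or 2.05% of those tested. In 166 of them (0.854%) the change was higher in liver, and in 232 (1.19%) it was lower. These clusters held 343 named genes, 140 higher and 203 lower. The median size of the difference was 0.71 among called clusters and 0.14 over all clusters, and 96 called clusters passed a size of 1. When each pool was reduced to a single value, its liver level minus the mean of its intestinal levels, the 4 lactating pools lay apart from the 4 control pools in 335 of the 398 clusters (84.2%), against 5.94% of all clusters. The 398 were selected by this same contrast in the same arrays, so a high share follows from the selection and is no separate support. For liver against intestine, normalizing the quantiles within each tissue turned the split to 234 higher and 217 lower. The number called fell to 260 without control pool 2, to 246 without control pool 3 and to 232 without lactating pool 3. It was 247 with no pool block, 85 in a fit of the single value per pool, and 22 in that fit with the replicate number as a block. Among the 89 called genes followed through all settings, 14 kept their call in this last fit, A2m, Pnpla3, Acmsd, Adipoq, Glb1l2, Asns, Trpm4, Hao2, Slc34a2, Plppr1, Ky, Ppp2r2b, Trpv6 and Hmox1, and the other 75 lost it.

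By their own lactation effects, 195 (49.0%) were called in liver and not in the intestinal mean, and 88 (22.1%) in the intestinal mean and not in liver. A further 6 were called in both with opposite signs, 3 in both with the same sign, and 106 (26.6%) in neither. For orientation, 366 clusters (1.88%) were called for lactation in liver, 139 higher and 227 lower. In the intestinal mean 531 (2.73%) were called, 215 higher and 316 lower. The intestinal mean averages 3 segments and has smaller standard errors, so an equal change is called there more readily than in liver. These placements compare separate tests and are a description. With the replicate number as a block, 803 clusters were called in liver and 2580 in the intestinal mean, and of the 398 clusters 210 (52.8%) were then placed in liver only, 118 (29.6%) in intestine only, 34 in both with opposite signs, 14 in both with the same sign and 22 in neither. With the mixed model (a repeated measures model with the pool as subject) 183 were placed in liver only, 44 in intestine only and 167 in neither. The test of the difference itself is the liver minus intestine contrast. Within single segments 0.643% of clusters were called in duodenum, 0.808% in jejunum and 1.28% in ileum. All 4 lactating pools lay apart from all 4 control pools in 5.21% of clusters in liver, 5.78% in duodenum, 5.37% in jejunum and 7.51% in ileum, the background for the separations given for single genes.

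**Figure D1:**
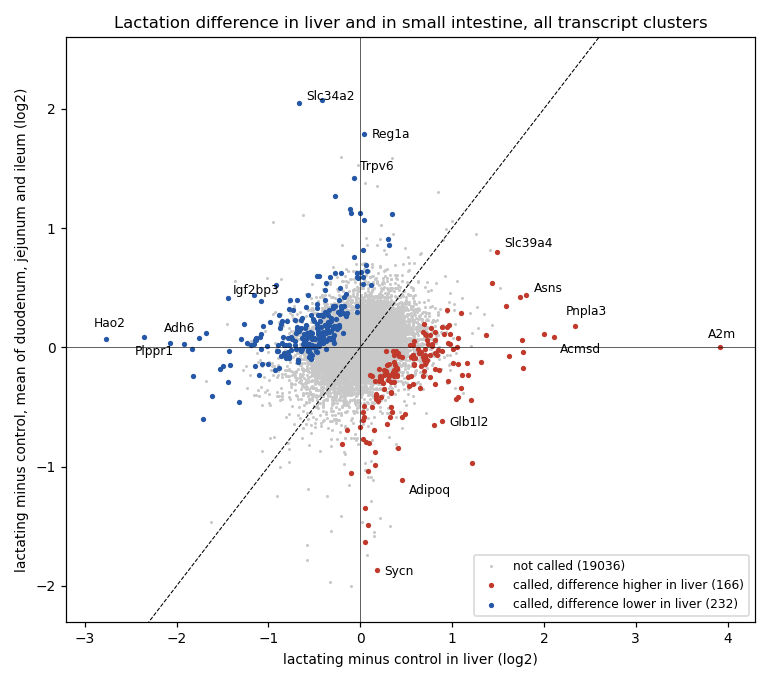
Lactating minus control difference in liver (x axis, log2) and its mean over duodenum, jejunum and ileum (y axis, log2), 1 point per transcript cluster. Red and blue points are the 166 and 232 called clusters, grey points those not called, and the dashed line marks equal change. Called clusters spread along the liver axis (A2m at 3.92, Hao2 at -2.77) and along the intestinal axis (Slc34a2 at 2.05, Sycn at -1.87).

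Of the 15 named genes with the highest called difference, 7 were called in liver only, 5 in the intestinal mean only, 2 in both with opposite signs and 1 in neither. Of the 15 with the lowest, 9 were called in liver only, 5 in the intestinal mean only and 1 in neither. The pool values lay apart in 27 of these 30 genes, which were selected on the same contrast, and Sycn, Arxes1 and Igfbp2 were the exceptions.

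RefSeq promoters (250 bases before to 50 after the start, build GRCr8) were available for 24 of the genes searched, the 30 leading genes with Scap, Slc39a4 and Elovl6. They were searched on both strands for 3 motifs. The Stat site TTCNNNGAA, which reads the same on both strands, is shown because prolactin and growth hormone act through Stat5. It was present in 4 of the 24 (16.7%), against 8.87% of 33469 promoters. The E-box CACGTG was present in 8.33% (6.42% of all), and TATAAA in 20.8% (14.2% of all). The 81 bases around each Stat site are printed 5′ to 3′ on the strand of the gene, with the matching bases in capitals. A match describes the letters only.
Plppr1, chr5:68232769-68232849, plus strand: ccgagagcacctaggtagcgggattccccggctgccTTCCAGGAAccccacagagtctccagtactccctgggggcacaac
Gzmb, chr15:34462481-34462561, minus strand: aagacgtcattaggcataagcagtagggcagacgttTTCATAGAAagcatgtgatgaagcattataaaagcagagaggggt
Trpv6, chr4:71489808-71489888, minus strand: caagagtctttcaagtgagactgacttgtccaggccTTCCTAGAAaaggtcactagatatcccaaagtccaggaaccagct
Reg1a, chr4:112450216-112450296, plus strand: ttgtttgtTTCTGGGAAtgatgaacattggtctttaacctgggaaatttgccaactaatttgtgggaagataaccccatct
All 4 had a lower difference in liver than in intestine. Promoters were missing for A2m, Sycn, Acmsd, Glb1l2 and Clps among the highest differences and for Slc25a30 and Gjb5 among the lowest. More genes with a lower than with a higher difference were therefore searched, and a link of the site with direction was not tested. Plppr1 was lower in lactating livers and Trpv6 and Reg1a higher in lactating intestine, while Gzmb was called lower in lactating livers and stood higher in all lactating pools of the ileum without a call, as given below.

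Genes called higher in the liver and not called in the intestinal mean were led by A2m (cluster 7258100), alpha-2-macroglobulin, a protease inhibitor of plasma that the rat liver makes in the acute phase and in pregnancy. Its liver values were 8.19, 9.56, 9.14 and 8.71 in lactating pools 1 to 4, against 4.58, 4.82, 5.76 and 4.76 in control pools. In the 24 intestinal pools it stayed between 3.17 and 3.79. The liver ratio was 15.1, and the liver minus intestine difference 3.92 ± 0.22 (adjusted p = 4.11e-12) was the highest of all named genes. Of 39 measured genes in the list of liver plasma proteins, A2m was the 1 called higher in liver and the 1 with a higher difference, while 2 had a lower difference and 4 were called higher in the intestinal mean. Over all 19434 clusters 0.854% had a higher and 1.19% a lower difference. Over the same clusters 139 were called higher in liver and 215 in the intestinal mean. Counts this small are not read as a result about the list.

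Pnpla3, a lipid droplet acylhydrolase and target of Srebp, had liver values of 10.99, 11.74, 11.72 and 11.06 in lactating pools, against 8.10, 8.99, 10.22 and 8.85 in control pools. The groups did not overlap. It also stood higher in the lactating duodenum (5.85 to 6.39, against 5.30 to 5.70 in control pools), without a call there (0.56, adjusted p = 0.513). The liver minus intestine difference was 2.16 ± 0.27 (adjusted p = 9.1e-06). Acmsd directs tryptophan breakdown away from NAD synthesis. Its liver values were 8.69, 8.60, 8.72 and 8.41 in lactating pools, against 6.30, 6.88, 6.91 and 5.89 in control pools, and its intestinal values lay between 3.25 and 3.77 in all pools. The difference was 2.02 ± 0.17 (adjusted p = 8.7e-09), near 2 against each of the 3 segments alone.

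Igfbp2, which binds insulin-like growth factors, had liver values of 9.09, 9.71, 10.19 and 7.76 in lactating pools, against 7.12, 7.03, 7.88 and 6.74 in control pools. Lactating pool 4 fell just below control pool 3, so the groups overlapped. Its difference was 1.89 ± 0.32 (adjusted p = 0.000716). Asns, asparagine synthetase and a target of the amino acid stress factor Atf4, had liver values of 7.22, 6.48, 7.14 and 6.41 in lactating pools, against 5.19, 4.65, 5.52 and 4.64 in control pools. It rose by 1.81 ± 0.20 in liver (adjusted p = 9.97e-07). In the intestine its lactating pools stood above control pools in duodenum (6.80 to 7.47, against 6.55 to 6.75) and ileum (7.78 to 8.05, against 7.06 to 7.37), without a call in the intestinal mean (0.44 ± 0.13, adjusted p = 0.0756). The difference was 1.37 ± 0.21 (adjusted p = 0.000164). Trpm4, a cation channel opened by calcium, reached 5.74 to 6.32 in lactating livers, against 4.70 to 5.13 in control livers, and lay higher in all intestinal pools (8.60 to 9.56). Its difference was 1.34 ± 0.12 (adjusted p = 1.67e-08). Arxes1, known in mouse from adipocytes, had 1.94 ± 0.47 (adjusted p = 0.0247). Liver values of Arxes1 were 7.97, 6.95, 7.53 and 4.95 in lactating pools, against 5.98, 4.05, 5.35 and 4.93 in control pools, with lactating pool 4 at the level of the controls. Its call ended with a repeated measures mixed model (adjusted p = 0.0537) and without control pool 2, 3 or 4 or lactating pool 1, 2 or 3 (0.0677 to 0.156).

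**Figure D2:**
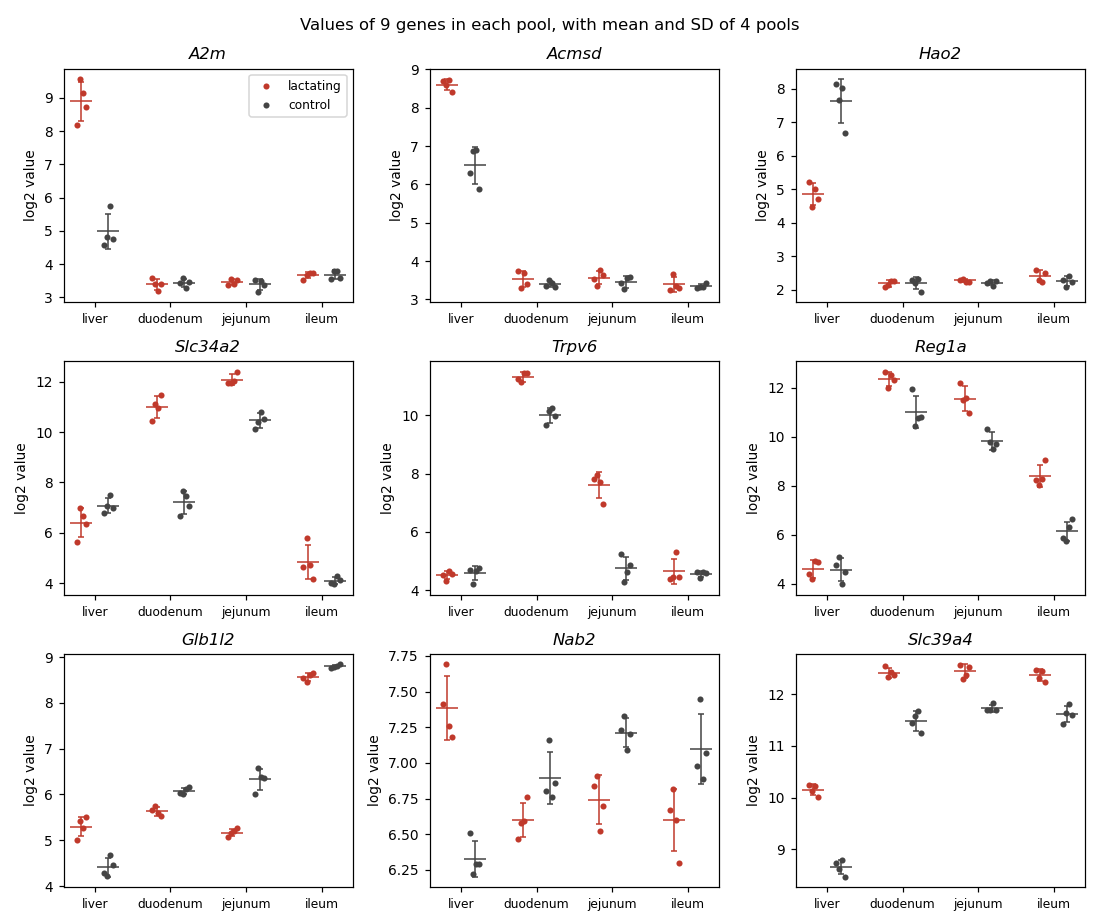
Log2 values of 9 genes in every pool (points), with the mean and SD of 4 pools, for lactating pools (red, left) and control pools (grey, right) in each tissue. The liver carries the change in A2m, Acmsd and Hao2, and the upper intestine in Slc34a2 and Trpv6. Glb1l2 and Nab2 were higher in lactating liver and lower in lactating intestine, and Slc39a4 was higher in all 4 tissues.

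Several genes fell with lactation in the liver alone. Of these Hao2, an oxidase of hydroxyacids in peroxisomes, had the lowest difference of all named genes. Liver values were 5.22, 4.48, 5.01 and 4.72 in lactating pools, against 8.14, 7.67, 8.03 and 6.69 in control pools. All intestinal values lay between 1.95 and 2.61, near the low end of the scale. The liver level fell to 0.146 of that in control livers, and the difference was -2.85 ± 0.21 (adjusted p = 8.42e-10). Plppr1, a membrane protein described in neurons, had 4.08, 4.52, 3.17 and 4.10 in lactating livers, against 6.28, 6.82, 6.18 and 5.97 in control livers. It lay between 2.65 and 3.49 in intestine, and lactating livers came close to that range. The difference was -2.44 ± 0.22 (adjusted p = 2.78e-08). Adh6, an alcohol dehydrogenase, had 3.67, 3.37, 3.33 and 4.18 in lactating livers, against 5.18, 6.15, 5.73 and 5.78 in control livers, with intestinal values of 2.55 to 2.96. Its difference was -2.11 ± 0.17 (adjusted p = 3.52e-09).

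The same pattern, lactating below control in liver with low intestinal values and no intestinal call, was seen for Cadps, which primes secretory vesicles (-1.95 ± 0.21, adjusted p = 4.44e-07). It was also seen for Ky, a peptidase described in muscle (-1.80 ± 0.14, adjusted p = 1.6e-09), and for Ppp2r2b, a regulatory subunit of protein phosphatase 2A (-1.59 ± 0.15, adjusted p = 5.05e-08). Uncalled intestinal changes were 0.27 for Ky in the ileum and -0.24 for Ppp2r2b in the intestinal mean. Slc25a30, a mitochondrial carrier, had 6.84 to 7.70 in lactating livers, against 8.25 to 9.47 in control livers, and a difference of -1.83 ± 0.32 (adjusted p = 0.000866). Dab1, an adaptor of reelin signalling, was as abundant in intestine as in liver. It had 6.30 to 6.71 in lactating livers, against 7.81 to 8.43 in control livers, while in the jejunum lactating pools (8.23 to 8.53) stood above control pools (7.85 to 8.0). Only its liver change was called, and the difference was -1.85 ± 0.23 (adjusted p = 6.67e-06). Gzmb, the granzyme of cytotoxic lymphocytes, had 5.29, 4.77, 4.32 and 4.49 in lactating livers, against 6.14, 5.68, 6.48 and 4.89 in control livers, with lactating pool 1 above control pool 4. In the ileum it had 11.03 to 11.64 in lactating pools, against 9.90 to 10.67 in control pools (1.04, adjusted p = 0.0603). The difference of Gzmb was -1.47 ± 0.29 (adjusted p = 0.00433). Of the 12 measured T cell markers no other was called for the difference, where 2.05% of all clusters were called.

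Genes that rose in the intestine and not in the liver were led by Slc34a2 (cluster 7126150), the sodium-dependent phosphate transporter of the brush border. In the duodenum it had 10.43, 11.12, 10.95 and 11.47 in lactating pools, against 6.66, 7.67, 7.46 and 7.05 in control pools. In the jejunum it had 11.96, 11.97, 12.02 and 12.40 in lactating pools, against 10.11, 10.40, 10.82 and 10.53 in control pools. Both segments were fully separated, and the change shrank along the intestine, with 3.78 in duodenum, 1.62 in jejunum and 0.74 in ileum (adjusted p = 0.244). In the liver it had 5.64 to 6.97 in lactating pools, against 6.78 to 7.51 in control pools. The liver minus intestine difference was -2.72 ± 0.29 (adjusted p = 5.64e-07), and it was called against each segment (-4.46, -2.29 and -1.41 against duodenum, jejunum and ileum, adjusted p = 8.89e-09, 0.000309 and 0.0412).

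Trpv6, the apical calcium channel of the enterocyte, had 7.82, 7.95, 7.70 and 6.97 in the lactating jejunum, against 5.23, 4.27, 4.62 and 4.87 in control jejunum. In the duodenum it had 11.13 to 11.46 in lactating pools, against 9.65 to 10.24 in control pools. Ileum and liver lay between 4.22 and 5.30 in both states. The contrast was -1.49 ± 0.22 (adjusted p = 0.000124) for the intestinal mean, -2.93 against the jejunum (adjusted p = 7.2e-08) and -0.15 against the ileum (adjusted p = 0.911). Reg1a, a secreted lectin of the regenerating family, was higher in lactating pools of all 3 segments. It had 8.25, 8.03, 8.29 and 9.04 in the lactating ileum, against 5.87, 5.76, 6.31 and 6.63 in control ileum, and 3.99 to 5.10 in all livers. Its difference was -1.75 ± 0.33 (adjusted p = 0.00216).

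St8sia6, a sialyltransferase, rose in intestine with 1 pool as an exception. In the ileum it had 8.25, 8.77, 5.35 and 8.76 in lactating pools, against 4.65, 5.45, 5.10 and 4.92 in control pools. Lactating pool 3 stood at the control level in all 3 segments. The difference was -2.49 ± 0.56 (adjusted p = 0.0118), and its call ended with array weights (adjusted p = 0.0553) and without control pool 3, lactating pool 1 or lactating pool 4 (0.0533 to 0.0718). Scd2, a stearoyl-CoA desaturase, had 10.55, 10.00, 10.74 and 11.25 in the lactating ileum, against 7.93, 8.61, 9.14 and 9.22 in control ileum. The jejunum had 0.32 (adjusted p = 0.78). The difference was -1.53 ± 0.34 (adjusted p = 0.0102), and the call ended without control pool 3, lactating pool 1 or lactating pool 3 (0.051 to 0.0579). Gjb5, a connexin, had -1.44 ± 0.32 (adjusted p = 0.0124), with neither organ called alone, and lost its call without lactating pool 2 (0.0831).

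The duodenum also held a group that went the other way. Sycn, Ctrl, Rnase1 and Clps, which encode a zymogen granule protein, a protease, a ribonuclease and the colipase of the exocrine pancreas, were among the 15 highest differences because they fell in the duodenum. Sycn had 4.46, 7.97, 5.53 and 4.31 in the lactating duodenum, against 10.88, 10.32, 11.88 and 10.95 in the control duodenum, and lay between 2.58 and 4.10 in all jejunum, ileum and liver pools. Its difference was 2.04 ± 0.53 (adjusted p = 0.0356). Rnase1 had 3.83, 5.39, 4.10 and 4.19 in the lactating duodenum, against 8.86, 7.64, 9.23 and 8.74 in the control duodenum (difference 1.57 ± 0.29, adjusted p = 0.00193). Of 13 measured pancreatic acinar markers, 11 were called lower in the intestinal mean, against 316 of all 19434 clusters. For the difference 1 (Clps) was called, against 2.05% of all clusters. Their summed level in the duodenum was 9.01 to 13.39 in lactating pools, against 14.35 to 15.56 in control pools. The median change of the 13 was -4.41 in the duodenum, 0.09 in the jejunum, -0.04 in the ileum and 0.05 in the liver. With the duodenum left out of the intestinal mean, which was chosen after seeing the data, the difference of Sycn was 0.26 (adjusted p = 0.941), and the calls of Ctrl, Rnase1 and Clps ended too. With the replicate number as a block the calls of Sycn, Ctrl and Clps also ended (adjusted p = 0.0606, 0.0624 and 0.0689), and with the mixed model too (0.0584 to 0.0631). Leaving out any 1 of control pools 1, 3 and 4 and lactating pools 1, 3 and 4 ended all 3 as well, and control pool 2 ended Ctrl and Clps (0.0515 to 0.164).

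**Figure D3:**
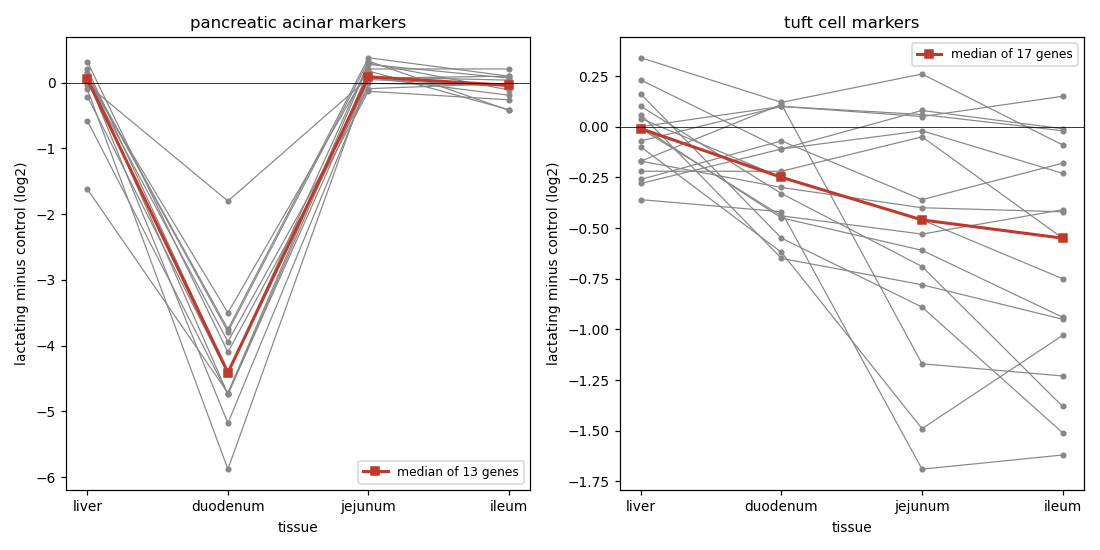
Lactating minus control difference (y axis, log2) in each tissue (x axis) for 13 pancreatic acinar markers and 17 tuft cell markers, with a grey line for each gene and the median in red. The acinar median is -4.41 in the duodenum and near 0 elsewhere, and the tuft median is -0.01 in liver and -0.25, -0.46 and -0.55 in duodenum, jejunum and ileum.

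Adipoq, the adipocyte hormone adiponectin, behaved in this way in the jejunum, with 2.93, 3.64, 3.63 and 3.43 in lactating pools, against 5.79, 6.41, 6.19 and 7.0 in control pools. In duodenum and liver it lay between 3.04 and 3.77. The difference was 1.56 ± 0.29 (adjusted p = 0.00179). The other 5 measured adipocyte markers were not called for the difference, and their list as a whole summed to 10.88 to 11.10 in the lactating jejunum, against 10.64 to 11.00 in the control jejunum. The part of fat or pancreas in these scrapings was not tested.

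**Figure D4:**
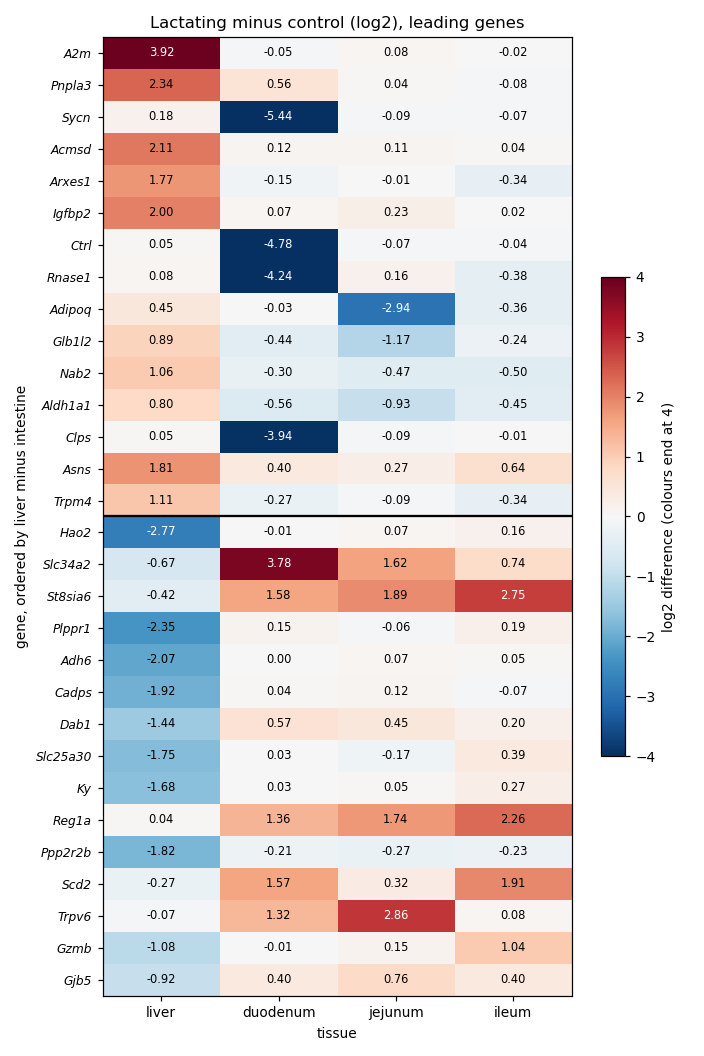
Lactating minus control difference (log2) in each tissue (columns) for the 15 named genes with the highest and the 15 with the lowest called liver minus intestine difference (rows, above and below the black line). Red stands for higher and blue for lower in lactating pools. Many rows are coloured mainly in the liver column, Sycn, Ctrl, Rnase1 and Clps in the duodenum only, and Adipoq in the jejunum.

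Named genes called in both organs with opposite signs numbered 5 (6 clusters). Glb1l2, a relative of the lysosomal beta-galactosidase, had 5.01, 5.41, 5.27 and 5.50 in lactating livers, against 4.28, 4.21, 4.67 and 4.47 in control livers. In the jejunum it had 5.06, 5.15, 5.20 and 5.26 in lactating pools, against 6.02, 6.57, 6.39 and 6.36 in control pools. Lactating pools were also all below control pools in duodenum and ileum. It rose by 0.89 ± 0.11 in liver (adjusted p = 6.98e-06) and fell by 0.62 in the intestinal mean (adjusted p = 5.05e-06), and the difference was 1.51 ± 0.12 (adjusted p = 1.6e-09). Nab2, a corepressor of the Egr transcription factors, had 7.41, 7.69, 7.26 and 7.18 in lactating livers, against 6.51, 6.22, 6.29 and 6.29 in control livers. Its intestinal mean fell by 0.42 (adjusted p = 0.0045), and the difference was 1.48 ± 0.14 (adjusted p = 2.78e-08). Igf2bp3, which binds mRNA, turned the other way. It had 4.32, 4.36, 4.26 and 4.70 in lactating livers, against 5.05, 5.33, 5.17 and 5.12 in control livers. In the jejunum it had 4.66 to 5.19 in lactating pools, against 4.10 to 4.25 in control pools, and its difference was -1.17 ± 0.11 (adjusted p = 1.1e-07). The change of Aldh1a1, which oxidizes retinaldehyde, was called in neither organ alone (0.80 in liver, adjusted p = 0.165, and -0.65 in intestine, adjusted p = 0.0523). The difference between them was called (1.44 ± 0.29, adjusted p = 0.00454).

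Genes that rose in both organs on the arrays, and more in liver, included Slc39a4, the zinc importer of the enterocyte. Liver values were 10.25, 10.12, 10.22 and 10.01 in lactating pools, against 8.74, 8.63, 8.79 and 8.47 in control pools. In the intestine lactating pools lay between 12.24 and 12.57, against 11.24 to 11.82 in control pools. The rise was 1.49 ± 0.09 in liver and 0.80 ± 0.06 in the intestinal mean, and the difference of 0.70 ± 0.10 (adjusted p = 5.72e-05) was called against each segment. In the study's RT-PCR of the same RNA the liver ratio of Slc39a4 was below that in duodenum and above those in jejunum and ileum. Its liver change was not significant there, so the larger rise in liver rests on the arrays. Psat1, of serine synthesis, rose by 1.43 in liver and 0.54 in intestine, with a difference of 0.89 ± 0.24 (adjusted p = 0.0477). Its call ended with the replicate number as a block (adjusted p = 0.155) and without any 1 of 6 pools, control 1, 2 and 4 and lactating 1, 3 and 4 (0.0987 to 0.147). Zbtb16, a transcription factor, fell in both, by 1.32 in liver and by 0.46 in intestine (difference -0.86 ± 0.19, adjusted p = 0.00926), and lost its call without lactating pool 2 or 3 (0.065 and 0.0638).

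Lipid and sterol genes, and those of the other pathways below, were taken from lists. Each count for the difference, here and below, is read against the 2.05% called among all clusters and their median difference of -0.02. Of 15 measured genes of cholesterol synthesis, 7 were called higher in liver and 12 in the intestinal mean, with medians of 0.63 in liver and 0.56 in intestine. Over all 19434 clusters 139 were called higher in liver and 215 in the intestinal mean, where the standard errors are smaller. For the difference 2 of the 15 were called, both lower. Cyp51, the lanosterol demethylase, had 12.21, 12.28, 12.29 and 12.41 in lactating livers, against 11.79, 12.10, 12.15 and 11.89 in control livers. In the duodenum it had 11.09 to 11.32 in lactating pools, against 9.94 to 10.22 in control pools, and the difference was -0.54 ± 0.13 (adjusted p = 0.0154). Nsdhl, a sterol dehydrogenase, had -0.40 ± 0.10 (adjusted p = 0.0301). Sqle, squalene epoxidase, chosen after its values were seen, rose by 0.90 in each organ (difference 0.00 ± 0.17). The call of Cyp51 ended without control pool 2 or 3 or lactating pool 1 or 3 (0.056 to 0.0865), and that of Nsdhl without any 1 of the 4 control pools or lactating pool 3 or 4 (0.0563 to 0.15). Both ended with the duodenum left out of the intestinal mean (0.12 and 0.251).

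Sterol sensing and export had 4 of 10 measured genes called, 1 higher and 3 lower. Scap, the escort of Srebp, had 9.74, 10.39, 10.37 and 10.07 in lactating livers, against 8.95, 9.04, 9.37 and 9.30 in control livers, and 7.14 to 7.75 in all intestinal pools. Its difference was 0.95 ± 0.12 (adjusted p = 8.65e-06). Abcg5 and Abcg8 form the pump that exports sterols into bile and gut lumen. Abcg5 had 7.10, 6.24, 6.95 and 6.76 in lactating livers, against 7.91, 8.80, 8.79 and 8.0 in control livers, and a difference of -1.20 ± 0.24 (adjusted p = 0.00447). Abcg8 had 5.12 to 5.55 in lactating livers, against 6.22 to 7.33 in control livers, and -1.10 ± 0.28 (adjusted p = 0.0342). Its call ended with the mixed model (adjusted p = 0.0557) and without control pool 2, 3 or 4 or lactating pool 1, 2 or 4 (0.0932 to 0.178). Insig2, which holds Scap in the endoplasmic reticulum and was chosen after its values were seen, had -0.66 ± 0.17 (adjusted p = 0.033). It lost its call with array weights (adjusted p = 0.0706) and without any 1 of 6 pools, control 1, 2 and 4 and lactating 1, 2 and 3 (0.0661 to 0.105).

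Fatty acid and triglyceride synthesis had 3 of 20 measured genes called higher and 1 lower. Beside Pnpla3 these were Elovl6, a fatty acid elongase, and Lpin2, a phosphatidate phosphatase (0.82 ± 0.13, adjusted p = 0.000338). Elovl6 had 11.27, 11.61, 11.40 and 12.09 in lactating livers, against 9.23, 9.69, 10.21 and 10.29 in control livers (difference 1.31 ± 0.23, adjusted p = 0.000868). Fatty acid oxidation and ketogenesis had 1 of 25 called higher and 3 lower. Cpt1a, which admits fatty acids to mitochondria, had 9.95, 9.45, 9.34 and 10.06 in lactating livers, against 10.86, 10.74, 10.27 and 10.58 in control livers. Its intestinal mean changed by -0.03, and the difference was -0.88 ± 0.13 (adjusted p = 0.000139). Plin2, which coats lipid droplets, had -0.87 ± 0.17 (adjusted p = 0.00367). The call that was higher, Ppargc1a, a coactivator of mitochondrial genes, had 0.03 in liver and -0.77 in the intestinal mean (difference 0.80 ± 0.20, adjusted p = 0.0275). It was lost with array weights (adjusted p = 0.0739) and without control pool 1 or 4 or lactating pool 2, 3 or 4 (0.0641 to 0.125).

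Bile acid genes had 3 of 24 called, all higher. Cyp7a1, the rate-limiting enzyme of bile acid synthesis, had 11.87, 11.81, 11.71 and 12.09 in lactating livers, against 10.55, 11.37, 10.92 and 11.26 in control livers, and at most 3.28 in intestine (difference 0.91 ± 0.21, adjusted p = 0.0149). Its call ended without control pool 3 or lactating pool 1 or 4 (0.0502 to 0.0864). Cyp27a1, of the alternative pathway, differed through the intestine instead. In the ileum it had 7.28, 7.52, 7.30 and 7.0 in lactating pools, against 7.97, 8.28, 7.83 and 8.43 in control pools, while livers of both states lay between 11.84 and 12.08 (difference 0.63 ± 0.13, adjusted p = 0.00697). Abcc3, a basolateral exporter, had 0.63 ± 0.13 (adjusted p = 0.00441). In glucose handling (2 of 19 called, both higher) Pfkfb1, the liver's regulator of glycolysis, had 0.98 ± 0.15 (adjusted p = 0.000127). Its intestinal values were low, 3.51 to 4.22, against 9.20 to 10.62 in liver, so the difference mainly restates the liver change. The fructose carrier Slc2a5 had 0.91 ± 0.21 (adjusted p = 0.0177) and lost its call without control pool 2 or 4 (0.096 and 0.105).

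Mineral absorption had 5 of 19 called, 2 higher and 3 lower, and 6 were called higher in the intestinal mean, against 215 of all 19434 clusters. Beside Slc34a2 and Trpv6, the iron exporter Slc40a1 had -0.92 ± 0.20 (adjusted p = 0.00813), with -0.33 in liver and 0.59 in intestine, and lost its call without control pool 4 (0.0522). Vdr, the vitamin D receptor, chosen after its values were seen, fell by 0.35 in intestine (difference 0.61 ± 0.13, adjusted p = 0.00697). Its call ended without control pool 3 or lactating pool 1 (0.0624 and 0.0616). The intracellular calcium carrier S100g, chosen in the same way, rose by 1.35 in intestine (adjusted p = 0.000886), but its difference of -1.16 ± 0.37 was not called (adjusted p = 0.114). Zinc transport had 2 of 23 called, Slc39a4 and Slc30a3, an exporter (0.75 ± 0.14, adjusted p = 0.00216).

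Among growth hormone, prolactin and Igf genes, 3 of 26 were called. Beside Igfbp2 these were Prlr, the prolactin receptor (-0.75 ± 0.14, adjusted p = 0.00198), lower in liver by 0.71, and Igfbp4. Igfbp4, another Igf binding protein, had -0.62 ± 0.16 (adjusted p = 0.0401) and lost its call without any 1 of 6 pools, control 2, 3 and 4 and lactating 1, 2 and 3 (0.0595 to 0.191). The list median was -0.28. Stat5b, Cish and Socs2, the signal carrier and 2 of its target genes, chosen after their values were seen, were called lower in liver (-0.45, -1.05 and -0.63), but their differences from intestine were not called (adjusted p = 0.108, 0.153 and 0.0712).

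Alcohol, aldehyde and hydroxyacid oxidation had 4 of 18 called, Aldh1a1 higher and Hao2, Adh6 and Hao1 lower. Hao1, the glycolate oxidase of peroxisomes, chosen after its values were seen, had 10.95 to 11.29 in lactating livers, against 11.51 to 11.75 in control livers. Its intestinal values were low, 3.38 to 4.18. Its difference was -0.56 ± 0.14 (adjusted p = 0.0221), and its call ended without control pool 1, 2 or 3 or lactating pool 3 (0.0655 to 0.118).

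Cytochromes P450 of families 1 to 3 had 3 of 26 called. Cyp3a23-3a1 changed by 0.74 in liver (difference 0.72 ± 0.10, adjusted p = 8.17e-05), and its relative Cyp3a73 by -0.83 (difference -0.84 ± 0.14, adjusted p = 0.000437). Near-identical Cyp3a copies may share probes, so these values are uncertain. In the intestine both genes lay near the low end of the scale (2.04 to 2.56 for Cyp3a23-3a1, 1.98 to 2.46 for Cyp3a73). Their differences therefore restate the liver changes and say little about a response of the intestine. Nr1i3, the nuclear receptor Car, had 1.05 ± 0.27 (adjusted p = 0.0323) and lost its call without any 1 of 6 pools, control 2, 3 and 4 and lactating 2, 3 and 4 (0.0682 to 0.115). Sult2b1, a sterol sulfotransferase, was the 1 call among 27 conjugation enzymes (0.70 ± 0.09, adjusted p = 2e-05). Amino acid breakdown had 3 of 43 called, Acmsd, Cth and Got1. Cth (0.55 ± 0.14) and Got1 (0.43 ± 0.11), both with adjusted p = 0.0392, lost their calls without 7 of the 8 pools, Cth holding only without lactating pool 1 and Got1 only without control pool 3. With the replicate number as a block the call of Got1 ended (adjusted p = 0.0571), and with array weights too (0.0588). In the serine, asparagine and Atf4 list 3 of 20 were called. Beside Asns and Psat1 this was Slc7a11, the cystine carrier (0.61 ± 0.14, adjusted p = 0.0157). Its liver values of 2.89 to 3.50 lay near the low end of the scale. The call was lost without control pool 3 or 4 or lactating pool 3 or 4 (0.0506 to 0.0969).

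**Figure D5:**
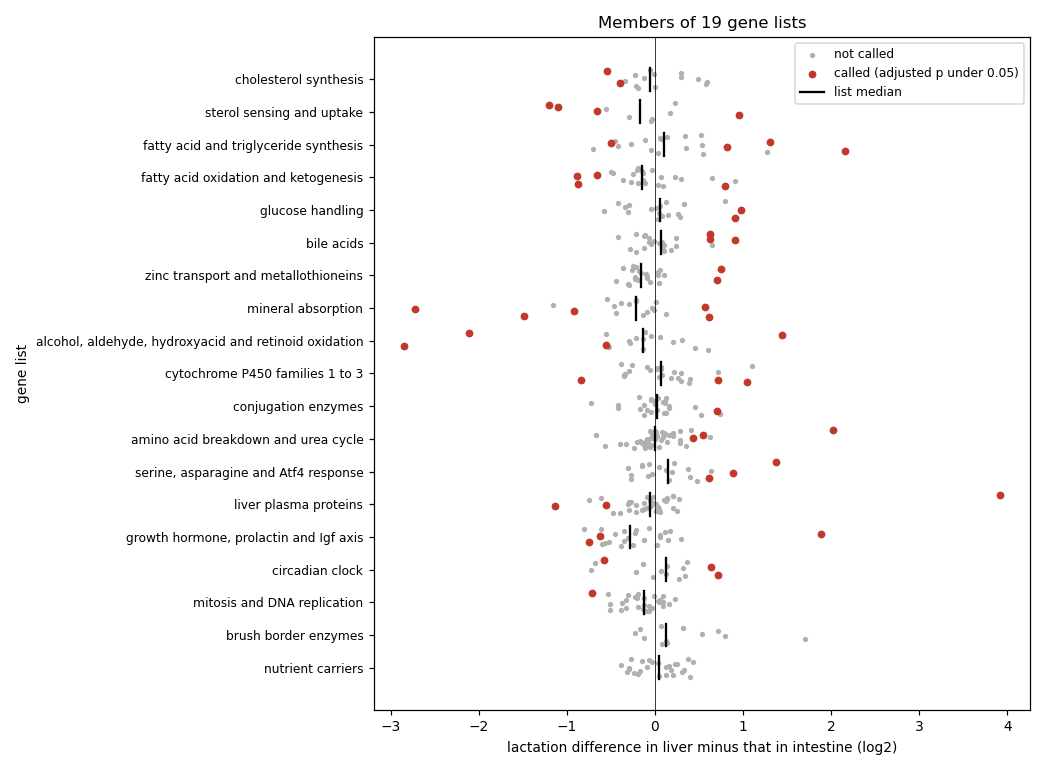
Liver minus intestine difference (x axis, log2) for the measured members of 19 gene lists (rows), with called members in red, others in grey and the list median as a black bar. List medians lay between -0.28 and 0.15, and several lists held called members on both sides of 0.

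Some liver genes differed because they changed in the intestine. Fga, the fibrinogen alpha chain, changed by 0.00 in liver and rose by 1.13 in the intestinal mean (difference -1.13 ± 0.26, adjusted p = 0.0171), and F2, prothrombin, by 0.03 and 0.59 (difference -0.55 ± 0.15, adjusted p = 0.0436). Both lost their calls on leaving out pools, Fga without control pool 1, 3 or 4 or lactating pool 3 (0.0609 to 0.0862), F2 without control pool 1, 2 or 3 or lactating pool 1, 2 or 4 (0.0623 to 0.149). F2 was also lost with array weights (adjusted p = 0.0804). Of 29 genes of mitosis and DNA replication, 10 were called higher in the intestinal mean, against 215 of all 19434 clusters. For the difference 1 of the 29 was called, Aurka, a mitotic kinase (-0.72 ± 0.17, adjusted p = 0.0155). Aurka lost its call without control pool 3 or lactating pool 2 or 3 (0.0545 to 0.108).

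Clock genes had 3 of 15 called. Per2 and Cry2, repressors of the clock, had 0.71 ± 0.17 (adjusted p = 0.0244) and 0.64 ± 0.16 (adjusted p = 0.0259), with -0.37 (not called) and -0.45 in intestine, and Bhlhe40, another repressor, had -0.58 ± 0.14 (adjusted p = 0.0173). With the replicate number as a block the call of Per2 ended (adjusted p = 0.0571), and with quantiles normalized within tissue that of Bhlhe40 (0.0643). Per2 was lost without control pool 1, 2 or 3 or lactating pool 3 or 4, Cry2 without control pool 2 or 3 or lactating pool 3 or 4, and Bhlhe40 without control pool 3 or 4 or lactating pool 2 or 4 (0.0505 to 0.14 in all). All rats were taken at 1 hour of the day. Of 12 brush border enzymes and 26 nutrient carriers, 0 were called for the difference by limma, with 3 and 8 at an unadjusted p under 0.05 and 1 of each list called by the mixed model. Over all 19434 clusters 2.05% were called by limma and 2380 had an unadjusted p under 0.05. In lists this short 0 calls are near that share and do not show a lack of response. The member with the highest difference was Plb1, a phospholipase (1.70 ± 0.65, adjusted p = 0.234, called with the duodenum left out at 0.0272), and among carriers Slc1a1, the glutamate carrier (0.43 ± 0.18, adjusted p = 0.301).

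Against single segments, 241 clusters (1.24%) were called for liver minus duodenum, 258 (1.33%) for jejunum and 257 (1.32%) for ileum. Of the 398 clusters called against the intestinal mean, 87 were called against all 3 segments, 81 against 2, 155 against 1 and 75 against none, and 395 had the same sign against all 3. Among the 88 clusters called in intestine and not in liver, the ileum held the largest change in 34, the jejunum in 32 and the duodenum in 22. The single segment contrasts share the liver arrays, so they do not repeat each other.

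A core of 20 clusters, 16 of them named genes, was called under all 19 other settings of the analysis that tested them. A higher difference was held by A2m, Pnpla3, Acmsd, Adipoq (through its change in jejunum), Glb1l2, Trpm4 and Plpp2, a lipid phosphatase (1.27). A lower difference was held by Hao2, Slc34a2, Plppr1, Ky, Ppp2r2b, Trpv6, Bmf, Hmox1 and Nckap5. Plpp2, Bmf, Nckap5 and Hmox1 are named for this stability, after their values were seen. Hmox1, heme oxygenase, had 8.15, 8.65, 8.29 and 8.12 in the lactating duodenum, against 6.76, 7.27, 7.27 and 6.27 in the control duodenum. In the liver it had 8.25 to 8.64 in lactating pools, against 8.22 to 8.90 in control pools (difference -1.23 ± 0.20, adjusted p = 0.000286). Bmf, which promotes apoptosis, had -1.40. Of all 398 clusters, 151 were called with each of the 8 pools left out in turn.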

How the data were processed

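Total RNA of pools of 4 rats was hybridised to Affymetrix Rat Exon 1.0 ST arrays, 1 array for each pool and tissue (32 arrays). The deposited values are on the log2 scale and were made by the authors in Affymetrix Expression Console with RMA at the gene level for the extended probe set: background correction, quantile normalization over arrays and summarizing of probes. Quantile normalization over unlike tissues forces 1 distribution on liver and intestine, which can shift small differences, and RMA compresses low signals. Array medians lay between 4.68 and 4.87. No counts exist, and the number of pools limits the precision.

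Means of the 8 groups were fitted for 19434 clusters with limma 3.58.1 in R 4.3.3, the pool as a random block (correlation 0.163), eBayes and Benjamini-Hochberg adjustment over all clusters. The contrast was the lactation effect in liver minus its mean over the 3 segments. Clusters with 1 symbol in the probe table numbered 13335, with several 612 and with none 5487, and a gene with more than 1 cluster was represented by that of highest mean. Named genes were the 15 highest and 15 lowest called differences, up to 3 called members of each list with the largest difference (or 1 member where none was called), the 3 largest in each direction called against every segment, and the 3 largest of each placement across the organs. Others are said to be chosen after their values were seen. The members and lists were chosen with earlier results of these data known. Same-numbered lactating and control pools deviated together over all arrays (r = 0.307 to 0.818, against -0.563 to 0.31 for other pairs), so the numbers were taken as pairs. In the liver minus intestine values themselves the same r was -0.00623 to 0.187, against -0.173 to 0.0285 for other pairs. A fit with the replicate number as a block was run. Alternatives covered the block, the normalization, filters, weights, the study's repeated measures mixed model and each pool left out.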

Additional observations from a re-analysis of the deposited data

Results flagged for a closer look

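The lactation effect differed between liver and intestine in 398 clusters by the test of the difference itself, and between liver and a single segment in 241 (duodenum), 258 (jejunum) and 257 (ileum).

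In 35 of 728 groups of 4 pools checked (4.81%), 1 pool stood apart from the other 3 by Dixon's criterion, and chance flags about 1 in 20 such groups. Each of the 8 pools was named between 3 and 6 times. Among lactating pools the high ones were Slc34a2 in jejunum pool 4 (12.40), Plppr1 in duodenum pool 4 (3.49), Trpv6 in ileum pool 3 (5.30), Abcg8 in liver pool 3 (5.55), Scap in duodenum pool 2 (7.61) and Slc30a3 in liver pool 1 (6.71). Further high values were Nr1i3 in liver pool 2 (7.69), Cyp3a73 in ileum pool 4 (2.37), Bhlhe40 in duodenum pool 4 (10.51), Plb1 in duodenum pool 4 (7.0), Slc1a1 in liver pool 3 (5.0), Gzmk in ileum pool 1 (3.25) and Vdr in duodenum pool 2 (11.60). The low lactating values were St8sia6 in ileum pool 3 (5.35), Slc25a30 in duodenum pool 1 (4.75), F2 in liver pool 4 (12.69), Sh2d7 in jejunum pool 3 (4.55) and Hao1 in duodenum pool 2 (3.42).

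Among control pools the high values were Cadps in ileum pool 2 (3.80), Cpt1a in duodenum pool 4 (10.32), Pfkfb1 in liver pool 3 (9.91), Slc39a4 in jejunum pool 3 (11.82), Aurka in ileum pool 4 (8.36) and Ccne1 in ileum pool 2 (5.34). The low control values were Ctrl in jejunum pool 3 (4.28), Plppr1 in ileum pool 3 (2.65), Ky in duodenum pool 1 (4.05), Scap in ileum pool 1 (7.51), F2 in duodenum pool 4 (4.53) and Igfbp4 in liver pool 1 (11.81). The rest were Bhlhe40 in jejunum pool 1 (10.00), Slc1a1 in liver pool 3 (3.80), Rap2b in jejunum pool 1 (7.16), Klrg1 in duodenum pool 2 (4.41) and Egf in liver pool 1 (7.29), all low. What set these pools apart was not tested.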

How the results depend on the processing

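Among the 398 clusters called for the liver minus intestine difference, none changed sign under any of the 19 alternative settings, or the 2 chosen after seeing the data, that tested it. The number called was 448 with the replicate number as a block, which kept 357 of them, and 521 with a repeated measures mixed model. It was 247 with no pool block, 85 with 1 difference per pool, 22 with 1 difference per pool and the replicate block, and 224 with both pools numbered 4 left out, an alternative chosen after seeing the data. Leaving out 1 pool gave 232 to 444. For liver against duodenum the count was 464 with array weights, 452 with a group mean of 6 or more, 157 with no pool block, 149 without both pools numbered 4, and 139 to 271 with 1 pool left out. For jejunum it was 150 with no pool block, 121 without both pools numbered 4, and 159 to 243 with 1 pool left out. For ileum it was 403 with array weights, 401 over the 14000 clusters of highest group mean, 481 with a group mean of 6 or more, 137 with no pool block, 114 without both pools numbered 4, and 135 to 264 with 1 pool left out. The lactation effect in liver gave 803 with the replicate block and 211 to 525 with 1 pool left out. In the intestinal mean it gave 986 with array weights, 204 with a group mean of 6 or more, 1064 with no pool block, 238 with the mixed model, 2580 with the replicate block, and 203 to 615 with 1 pool left out. The cause of these shifts was not tested, except that fits on fewer pools rest on fewer samples. That the numbers pair the pools was taken from the correlation of their deviations, and no label says what pools of the same number share. Of 89 called genes followed, 8 lost their call with the replicate block (Sycn, Ctrl, Clps, Got1, Psat1, Per2, Gzmk and Slc20a1), 56 with 1 difference per pool and 75 with 1 difference per pool and the replicate block. With 4 pools a group and low signals compressed by RMA, a gene that missed the threshold is not shown to respond alike in both organs.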

Other observations

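Tuft cells are chemosensory cells of the intestinal lining. Of 17 measured tuft markers, a list chosen after values were seen, 11 were called lower in the intestinal mean, against 316 of all 19434 clusters. For the liver minus intestine difference 6 were called, all higher, against 0.854% of all clusters called higher. A high share can follow from the choice of the list after values were seen, and it is no separate support. Trpm5, their cation channel, had 5.14, 5.28, 5.29 and 5.22 in the lactating ileum, against 6.24, 6.45, 5.95 and 6.07 in the control ileum. Dclk1, a kinase used as a tuft marker, had 5.94 to 6.46 in the lactating ileum, against 7.37 to 7.95 in the control ileum. Lactating pools lay below control pools for both, and the intestinal mean was -0.67 for Trpm5 and -0.80 for Dclk1. The intestinal mean was -0.99 for Sh2d7 and -0.49 for the transcription factor Pou2f3. The call of Pou2f3 ended without control pool 2 or lactating pool 1 or 4 (adjusted p 0.0817 to 0.0986).

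Among other cell types of the liver, the lists again chosen with values seen, 2 of 11 measured stellate and fibroblast markers (Hgf and Cxcl12) were called for the liver minus intestine difference, both lower. Of 9 endothelial markers 1 was called, also lower, and of 10 macrophage and Kupffer cell markers 0 were called by limma, with 1 at an unadjusted p under 0.05 and 0 called by the mixed model. Over all 19434 clusters 2.05% were called by limma and 2380 had an unadjusted p under 0.05. Counts this small in short lists are not read as a result about these cell types. Hgf, the hepatocyte growth factor of stellate cells, had 6.10, 6.03, 5.76 and 6.60 in lactating livers, against 6.85, 7.33, 7.47 and 7.15 in control livers (difference -1.19 ± 0.16, adjusted p = 2.49e-05 by limma). The intestinal values of Hgf were low, 3.00 to 3.82. Cxcl12, a chemokine, had -0.83 ± 0.13 (adjusted p = 0.000219). Klrg1, a receptor of natural killer and T cells, had 6.85 to 7.54 in lactating livers, against 8.01 to 8.53 in control livers (-1.21 ± 0.17, adjusted p = 5.39e-05). Of 10 measured natural killer and cytotoxic markers 3 were called lower for the difference and 1 higher, against 2.05% of all clusters. This list too was chosen with values seen, so its share is no separate support. The 3 were Gzmb, Klrg1 and Gzmk, each also called lower in liver, and the 1 higher was Ctsw, through a lower intestinal mean (-0.61). Gzmk lay near the low end of the scale, with 2.63 to 2.90 in lactating livers, against 2.83 to 3.92 in control livers. Its call (-0.75 ± 0.20, adjusted p = 0.0429) ended with the replicate number as a block, with the mixed model and without 7 of the 8 pools.

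Cdkn3 and Egf were chosen after their values were seen. Cdkn3, a phosphatase of the cell cycle, had 6.51, 6.44, 6.23 and 5.98 in lactating livers, against 4.66, 5.02, 4.59 and 4.52 in control livers (difference 1.24 ± 0.22, adjusted p = 0.00106). The groups did not overlap. Egf, the epidermal growth factor, changed by -0.83 ± 0.14 in liver (adjusted p = 0.000634) and by -0.05 in the intestinal mean (adjusted p = 0.908), and the difference was -0.78 ± 0.15 (adjusted p = 0.00262).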
